A study of Mus musculus with 7 samples.

Results

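The genes described are 9 genes of vitamin A (retinol) handling and retinoic acid signalling: Stra6, Rbp4, Rdh10, Aldh1a1, Aldh1a2, Aldh1a3, Cyp26b1, Rarb and Rarg. They were picked by gene symbol, with Stra6 known from an earlier look at the same table to differ strongly between the genotypes. Of the 9 symbols, 7 were found among the 21176 genes of the deposited table; Rbp4 and Aldh1a2 were not analysed here. Because the comparison of genotypes helped to choose these genes, their differences are given as descriptions, and no test is read from them. Tests are given for other genes of the pathway and for cell type markers. Those lists were also chosen with earlier results of these data known, which limits what their counts can show.

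RNA came from follicular dendritic cells (FDCs), stromal cells that display antigen to B cells in the follicle. They were sorted from popliteal lymph nodes of male mice aged 8 to 12 weeks that had not been immunized. There were 4 wild-type (WT) samples and 3 Ngfr knockout samples (Ngfr KO), each a pool of nodes from several animals. Ngfr encodes the neurotrophin receptor p75. The labels do not name the Ngfr allele or say in which cells the gene was lost. Values of Ngfr itself lay between 0.377 and 1.30 in WT and between 0.184 and 0.353 in Ngfr KO.

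Retinol travels in blood bound to the carrier Rbp4, and Stra6 is the membrane receptor that takes it up from that carrier. Inside the cell Rdh10 oxidises retinol to retinaldehyde, and the Aldh1a enzymes oxidise retinaldehyde to retinoic acid, a step that is not reversed. Cyp26 enzymes break retinoic acid down, and the nuclear receptors Rara, Rarb and Rarg, paired with Rxr proteins, bind it and act on genes that carry retinoic acid response elements. In lymphoid tissue retinoic acid is best known from the gut, where it guides the homing of lymphocytes and the switch to IgA.

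A classical element of this kind lies just upstream of Rarb, which is itself a textbook target of retinoic acid, and it is shown here as the best known such element among these genes. Stra6, named for its stimulation by retinoic acid, and Cyp26b1 are also known to be induced by it. The 250 bases before the RefSeq start of Rarb (minus strand, chr14:16575477-16575726, GRCm38.p6) are printed 5′ to 3′, with the element in capitals. The same stretch before the first RefSeq start of Stra6 (plus strand, chr9:58128838-58129087, GRCm38.p6) follows, since Stra6 showed the widest gap between genotypes among these genes.
Rarb: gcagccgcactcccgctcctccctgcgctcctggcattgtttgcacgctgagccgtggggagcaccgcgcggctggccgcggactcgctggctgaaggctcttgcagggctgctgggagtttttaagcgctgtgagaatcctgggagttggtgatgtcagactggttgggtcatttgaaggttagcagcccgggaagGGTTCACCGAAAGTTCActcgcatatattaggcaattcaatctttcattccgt
Stra6: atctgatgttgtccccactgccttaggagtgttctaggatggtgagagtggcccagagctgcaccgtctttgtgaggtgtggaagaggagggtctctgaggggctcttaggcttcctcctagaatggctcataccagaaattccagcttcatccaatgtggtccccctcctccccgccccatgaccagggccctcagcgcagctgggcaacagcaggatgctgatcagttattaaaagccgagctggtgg

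The capitals spell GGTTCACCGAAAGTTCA, a direct repeat of a short unit with 5 bases between the copies, from 53 to 37 bases before the start. RefSeq windows of 300 bases, 250 before and 50 after a start, were held for 7 of the 9 genes, 13 windows in all, and not for Rdh10 or Aldh1a3. On either strand, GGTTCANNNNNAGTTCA occurred in the Rarb window and in 0.00609% of all 32851 windows. A relaxed DR5 element, which allows A or G as the first base and G or T as the third base of each unit and includes that motif, occurred in 0.0974% of all windows. Among the windows of the 9 genes it was found for Rarb only, and none of the 4 Stra6 windows held it. The single unit AGGTCA, found in 16.3% of all windows, occurred in 1 Rarg window and in none of the Stra6 windows. These are matches of letters near annotated starts, and response elements farther away were not searched.

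Values are the authors' normalised values: read counts times 1 factor per sample, with no division by gene length. One unit of value is worth 230.1 to 294.8 reads in these libraries. Log2 changes are of value + 1, Ngfr KO minus WT, with the standard error (SE) of a limma fit. A gene was tested where 3 or more samples reached a value of 1, and it was called at a Benjamini-Hochberg adjusted p-value under 0.05. Stra6, Rdh10 and Aldh1a3 passed that filter and all 3 met the call for higher values, where 34.2% of all tested genes were called, 18.3% higher and 15.8% lower. The 4 genes below the filter were Aldh1a1, Cyp26b1, Rarb and Rarg. With edgeR on the recovered reads, which could test all 7, the same 3 were called higher and Rarg lower, beside 15.2% of all genes it tested (8.67% higher and 6.55% lower). Every Ngfr KO sample lay above every WT sample in 4 of the 7 genes, beside 12.5% of all genes in the table, and below in 1, beside 13.1%. In either direction the groups were apart in 25.6% of all genes in the table and in 40.9% of those that passed the filter. Since this contrast served to choose the genes, nothing is read from those counts.

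Stra6 (ENSMUSG00000032327, chromosome 9, 58063788 to 58153996, plus strand, GRCm38), the retinol uptake receptor, had values of 0.545, 2.04, 2.58 and 2.19 in WT replicates 1 to 4. In Ngfr KO replicates 1 to 3 it had 14.5, 23.2 and 16.3. The lowest Ngfr KO sample was thus far above the highest WT sample, and WT replicate 1 stood below the other WT samples. The means were 1.84 ± 0.89 (SD, n = 4) and 18.0 ± 4.6 (SD, n = 3), a 9.78-fold ratio of means. The log2 change was 2.78 (SE 0.27), and edgeR on the reads gave 3.36 (SE 0.44). Reads numbered 140 to 594 per WT library and 3987 to 6844 per Ngfr KO library.

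Rdh10 (ENSMUSG00000025921, chromosome 1, 16105774 to 16133734, plus strand), the main retinol dehydrogenase of retinoic acid synthesis, had 3.51, 4.18, 5.29 and 3.83 in WT. Its values in Ngfr KO were 9.26, 9.91 and 11.5. The groups were well apart and each was tight, at 4.20 ± 0.78 (SD, n = 4) and 10.2 ± 1.2 (SD, n = 3). The log2 change was 1.12 (SE 0.17), less than that of Stra6.

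Aldh1a3 (ENSMUSG00000015134, chromosome 7, 66390890 to 66427517, minus strand), a retinaldehyde dehydrogenase, had 1.42, 3.86, 2.36 and 2.64 in WT. The 3 Ngfr KO samples had 5.36, 7.43 and 5.54. Again no samples overlapped, with the means at 2.57 ± 1.01 (SD, n = 4) and 6.11 ± 1.14 (SD, n = 3). Close to the 1.12 of Rdh10, the log2 change of Aldh1a3 was 1.03 (SE 0.22). Its relative Aldh1a1 (ENSMUSG00000053279, chromosome 19, 20492715 to 20643465, plus strand) was close to absent. Aldh1a1 had 3, 38, 37 and 58 reads in WT replicates 1 to 4 and 19, 24 and 25 in Ngfr KO replicates 1 to 3, with values of 0.0117 to 0.221 and 0.0689 to 0.10. WT replicate 1 lay below the Ngfr KO samples and the other 3 WT samples above them, so the groups overlapped through that sample alone. Its close paralogue Aldh1a7 could also share reads with it.

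**Figure D1:**
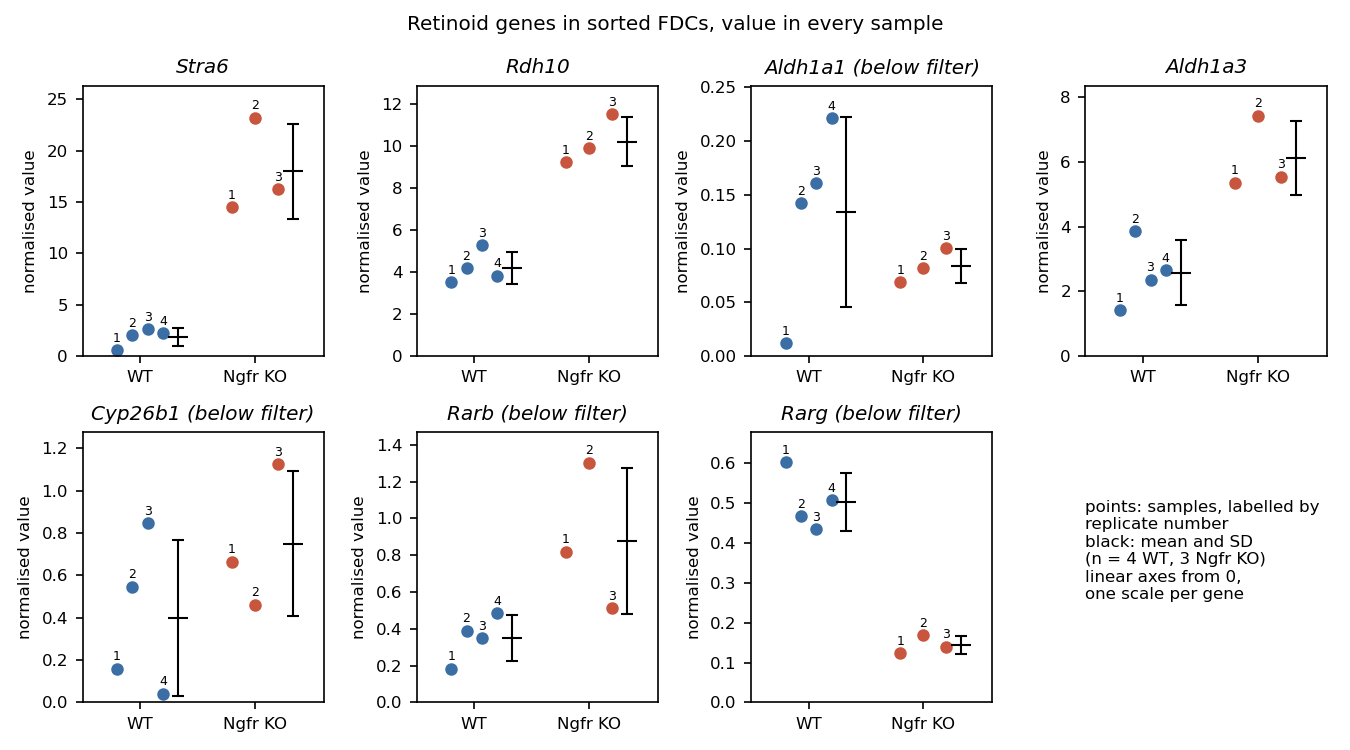
Normalised value of the 7 genes in every sample (points, labelled by replicate number; linear axes from 0, a separate scale for each gene), with the mean and SD in black (n = 4 WT, n = 3 Ngfr KO). Stra6, Rdh10, Aldh1a3 and Rarb lie higher in all 3 Ngfr KO samples, Rarg lies lower, and Aldh1a1 and Cyp26b1 overlap.

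Cyp26b1 (ENSMUSG00000063415, chromosome 6, 84571414 to 84593908, minus strand), the enzyme that clears retinoic acid, was the most variable of the set within WT. Its WT values were 0.160, 0.546, 0.848 and 0.0420, which is a 20.2-fold range among samples of the same genotype. The Ngfr KO values of 0.664, 0.461 and 1.13 fell partly inside that range. The groups of Cyp26b1 therefore overlapped, as did those of the synthetic enzyme Aldh1a1, while those of Rdh10 and Aldh1a3 did not.

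The 2 receptor genes had opposite differences in these values, given as a description. Of the 2, edgeR called only Rarg, and nothing is read from that call, since the contrast served to choose the genes. Rarb (ENSMUSG00000017491, chromosome 14, 16430839 to 16819156, minus strand) had 0.183, 0.389, 0.348 and 0.484 in WT. Its Ngfr KO values were 0.820, 1.30 and 0.513. All of them were above the WT values, but Ngfr KO replicate 3 was close to WT replicate 4. On 47 to 127 reads per WT library and 128 to 384 per Ngfr KO library, edgeR gave a log2 change of 1.41 (SE 0.45). The exons of Rarb share 1793 bases with those of Top2b on the other strand, so reads of the pair may have been mixed. Top2b itself had the opposite difference, with 5.61 to 8.03 in WT samples and 3.64 to 4.05 in Ngfr KO samples.

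Rarg (ENSMUSG00000001288, chromosome 15, 102234938 to 102257517, minus strand) had 0.603, 0.468, 0.435 and 0.507 in WT and only 0.123, 0.170 and 0.140 in Ngfr KO. It was the steadiest of the 7 genes within WT, with a 1.39-fold range, and all Ngfr KO samples were far below it. The means were 0.503 ± 0.073 (SD, n = 4) and 0.144 ± 0.023 (SD, n = 3), a 3.49-fold ratio of WT to Ngfr KO. The edgeR log2 change was -1.72 (SE 0.44), on 100 to 155 reads in WT and 34 to 50 in Ngfr KO. The value + 1 scale shrinks the change of such low genes, to -0.39 for Rarg and 0.46 for Rarb.

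Levels of different genes can be compared only per length, here as the value per kilobase of summed exons. In WT the order was Rdh10 at 1.01 ± 0.19 (SD, n = 4), Aldh1a3 at 0.556 ± 0.218 and Stra6 at 0.315 ± 0.153. Rarg followed at 0.118 ± 0.017, then Cyp26b1 at 0.0745 ± 0.0689, Rarb at 0.0667 ± 0.0239 and Aldh1a1 at 0.0271 ± 0.0179. Rdh10 stood above Aldh1a3 in every WT sample, with a range of 0.844 to 1.27 against 0.307 to 0.835, while Aldh1a3 and Stra6 overlapped (0.0935 to 0.443 for Stra6). Cyp26b1, at 0.00784 to 0.158, overlapped with Rarg, at 0.102 to 0.142, and Cyp26b1, Rarb and Aldh1a1 also overlapped with each other. In Ngfr KO, Stra6 came first at 3.08 ± 0.79 (SD, n = 3), overlapping with Rdh10 at 2.46 ± 0.28, and Aldh1a3 followed at 1.32 ± 0.25. Rarb, at 0.167 ± 0.076, and Cyp26b1, at 0.140 ± 0.064, overlapped. Rarg, at 0.0339 ± 0.0055, and Aldh1a1, at 0.0169 ± 0.0032, were last. The uptake receptor thus moved from the third place to the first, and Rarg from above Rarb to below it.

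The rest of the pathway was examined through 62 other genes in 6 groups, of which 50 were in the table and 24 passed the filter. limma called 4 of the 24 higher and 6 lower in Ngfr KO, or 41.7%, beside 34.2% of all tested genes (18.3% higher and 15.8% lower). Their median log2 change was -0.02, against 0.02 over all tested genes. Without Ngfr KO replicate 2 the count was 6 in place of 10, and it was 2 when a value of 10 was required. The groups are small and were not tested as groups, and exon length, given below, differs between their called genes. Of the enzymes that interconvert retinol and retinaldehyde, 3 of 7 tested rose and none fell. Of the receptors and cofactors 3 of 5 tested fell and none rose. Of the genes known to respond to retinoic acid, 1 of 8 tested rose and 3 fell. None of 3 tested genes for transport and binding, and not the single tested gene of storage, was called.

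Rdh11, a retinaldehyde reductase, had 0.951 ± 0.150 (SD, n = 4, WT) and rose to 2.21 ± 0.48 (SD, n = 3, Ngfr KO), by 0.71 on the log2 scale with an SE of 0.15 (limma adjusted p = 0.00480). Rdh14, a related dehydrogenase, rose from 3.07 ± 0.89 to 4.82 ± 0.04 (log2 change 0.54, limma adjusted p = 0.0372). Dhrs7, a short-chain dehydrogenase with activity on retinoids, rose from 8.65 ± 1.06 to 12.5 ± 0.4 (log2 change 0.50, limma adjusted p = 0.0316). In all 3 genes the groups did not overlap. The call of Rdh14 was lost with edgeR (adjusted p = 0.0673) and when any replicate other than WT replicate 3 was left out. That of Dhrs7 was lost without WT replicate 1 or 2 or Ngfr KO replicate 1 or 2. Dhrs3, which reduces retinaldehyde back to retinol and is itself induced by retinoic acid, had 3.75 ± 0.29 (SD, n = 4, WT) and 2.74 ± 0.30 (SD, n = 3, Ngfr KO) and was not called (limma adjusted p = 0.0770), although its groups did not overlap.

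Fabp5, a fatty acid binding protein that also delivers retinoic acid, had 32.1 ± 12.5 (SD, n = 4, WT) and 53.8 ± 18.6 (SD, n = 3, Ngfr KO) and was not called (limma adjusted p = 0.0949). Dgat1, which can esterify retinol for storage, had 0.906 ± 0.152 and 1.09 ± 0.26 (limma adjusted p = 0.505).

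**Figure D2:**
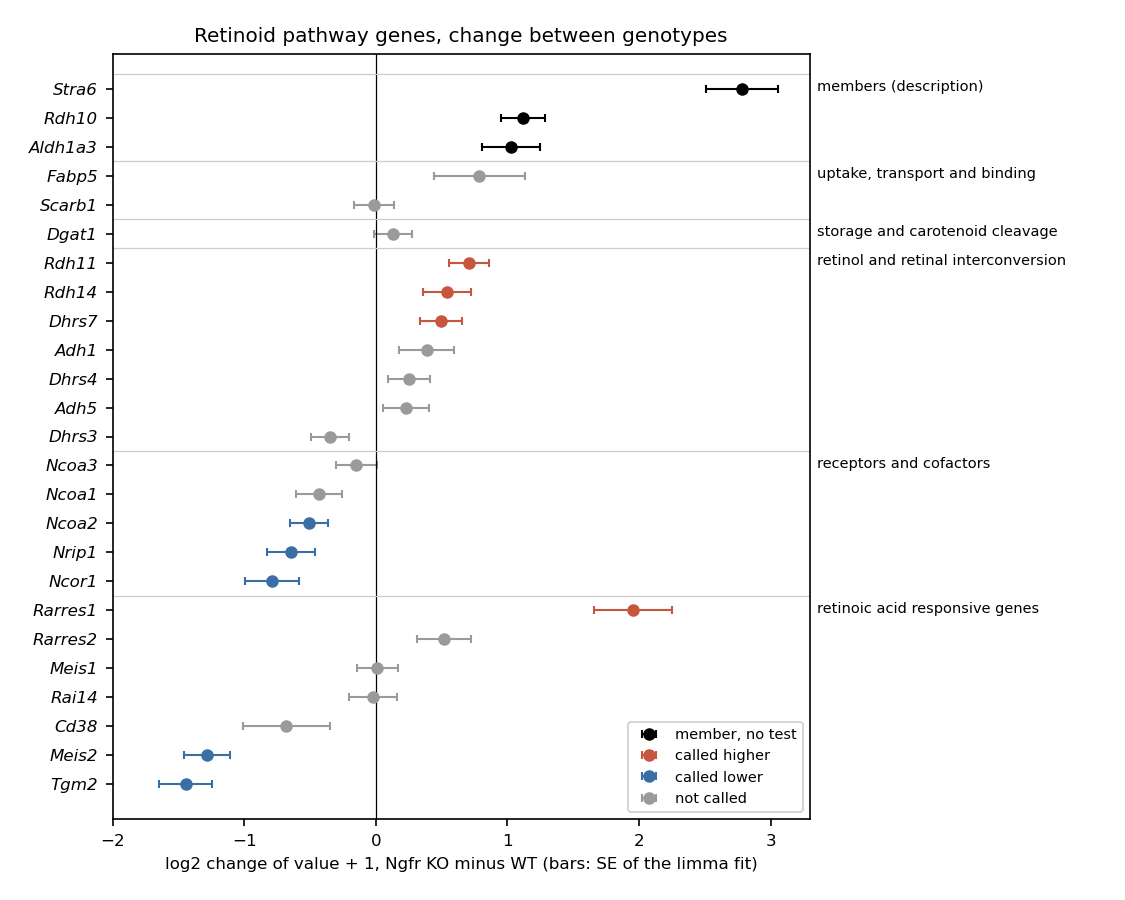
Log2 change of value + 1 (Ngfr KO minus WT, with bars for the SE of the limma fit) for retinoid genes that passed the filter, by group. Black points are genes of the opening set, given as a description with no test read from them. The 3 called enzymes lie to the right, the 3 called cofactors to the left, and the genes that respond to retinoic acid run from -1.44 to 1.95.

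The cofactors that fell were Ncor1, a corepressor held by receptors without ligand, Nrip1, a corepressor of receptors that have bound it, and Ncoa2, a coactivator. Ncor1 fell by 0.79 on the log2 scale with an SE of 0.20, from 8.20 ± 2.29 (SD, n = 4, WT) to 4.19 ± 0.21 (SD, n = 3, Ngfr KO; limma adjusted p = 0.0122). Nrip1 fell from 5.20 ± 0.16 to 3.05 ± 1.01 (log2 change -0.65, limma adjusted p = 0.0184) and Ncoa2 from 2.30 ± 0.35 to 1.32 ± 0.03 (log2 change -0.50, limma adjusted p = 0.0198). Nrip1 was not called by edgeR (adjusted p = 0.0582), nor without Ngfr KO replicate 2. Ncoa2 was not called when WT replicate 1 or 2 or Ngfr KO replicate 1 or 2 was left out.

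Genes known to respond to retinoic acid did not share a direction. Rarres1, first described as a retinoic acid receptor responder, rose from 2.23 ± 1.15 (SD, n = 4, WT) to 11.0 ± 3.2 (SD, n = 3, Ngfr KO). Its log2 change of 1.95, with an SE of 0.30 (limma adjusted p = 9.25e-04), was the highest among the 24 genes. Tgm2, a transglutaminase that is a standard retinoic acid target and is abundant in endothelium, went from 23.1 ± 4.1 to 7.87 ± 1.82 and so fell by 1.44 on the log2 scale, with an SE of 0.20 (limma adjusted p = 5.90e-04). The homeobox gene Meis2 fell by 1.28 on the log2 scale (limma adjusted p = 5.82e-04). In these 3 genes the groups did not overlap. Exons of Tgm2 share 370 bases with Rprd1b and 633 with a noncoding transcript on the other strand.

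Exon length went along with the changes in part of this list. The called genes Ncor1, Nrip1, Ncoa2 and Meis2 have 11457 to 15642 bases of exons, and the 984 tested genes with at least 10 kb had a median log2 change of -0.27, with 30.7% called lower and 6.20% higher. The 4 genes that rose have 1325 to 3541 bases, and genes under 4 kb had a median of 0.20, with 26.2% called higher and 10.2% lower. The 7 genes of the opening set lie between, at 4160 to 5829 bases, where tested genes of 4 to 6 kb had a median of 0.03. After removal of each sample's trend with length, chosen after the data were seen, Rdh14, Dhrs7, Nrip1 and Ncoa2 were no longer called, with limma adjusted p-values of 0.0712, 0.0920, 0.0741 and 0.241. The other 6 were called, as was Dhrs3 (adjusted p = 0.00699), and Stra6, Rdh10 and Aldh1a3 had log2 changes of 2.81, 1.02 and 0.97. The part of length in these changes was not tested further.

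**Figure D3:**
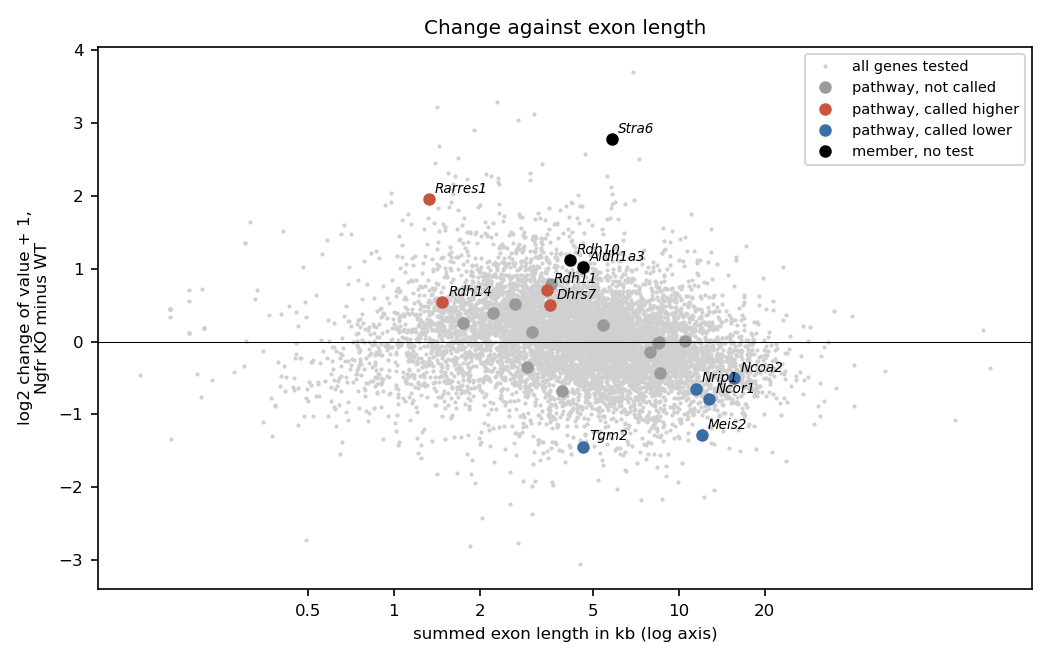
Log2 change of value + 1 (Ngfr KO minus WT) against summed exon length in kb (log axis) for all tested genes (small grey points) and retinoid genes (large points: black for members, coloured where called, grey where not). The called cofactors and Meis2 sit beyond 10 kb, and Tgm2 at 4608 bases does not. Stra6, Rdh10 and Aldh1a3 lie well above most genes of their length. Since this contrast served to choose them, nothing is read from their place.

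Genes whose profile over the 7 samples was most like that of Stra6 were found by the root mean square difference between log2(value + 1) profiles, each centred on its own mean. The 5 nearest were Tnfrsf9 at 0.262, Madcam1 at 0.271, Gfpt2 at 0.295, Plppr1 at 0.297 and Cd200 at 0.300, where the median over 8323 other genes was 1.44. Tnfrsf9 encodes the costimulatory receptor 4-1BB, Madcam1 an adhesion molecule of FDCs and venules, Gfpt2 an enzyme that makes glucosamine phosphate, and Cd200 an inhibitory ligand of myeloid cells. Tnfrsf9 had 0.128 to 1.69 in WT samples and 11.2 to 19.9 in Ngfr KO samples. Like Stra6, it was highest in Ngfr KO replicate 2. Madcam1 had 15.2 to 29.8 and 146 to 193, with Ngfr KO replicate 3 as its highest sample. All 5 were lowest in WT replicate 1, as Stra6 was. They were picked for likeness to the Stra6 profile, so shared features such as this follow from the choice.

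Markers of the cell types the sort could hold, in lists chosen with earlier results known, moved with the genotypes too. Cr2, the complement receptor that marks FDCs, was present in all samples (26.5 to 76.6 among WT samples, 95.5 to 111 among Ngfr KO samples). Of 15 FDC markers 14 were called higher and none lower, and the median over the list was 1.38 on the log2 scale. Their summed value was 1825 to 5127 in WT samples and 7889 to 10437 in Ngfr KO samples. Endothelial markers were present as well, and all 14 were called lower (median log2 change -1.51; summed value 186 to 294 in WT samples, 50.9 to 92.4 in Ngfr KO samples). In bulk RNA, fewer cells of a type and less RNA per cell cannot be told apart. WT replicate 1 had the lowest mean log2 level of FDC markers, 4.34 against 5.23 to 5.53 in the other WT samples, and it was the lowest WT sample for 5 of the 7 retinoid genes.

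Set against the mean log2 level of the FDC markers in the same sample, Stra6 was at -3.71 ± 0.11 (SD, n = 4) in WT. It was higher in Ngfr KO, at -2.56 ± 0.26 (SD, n = 3). The 1 added to each value narrows the WT spread of Stra6, which had only 0.545 in WT replicate 1. Rdh10 had -2.78 ± 0.45 and -3.30 ± 0.10, with overlapping groups, and Aldh1a3 had -3.35 ± 0.40 and -3.97 ± 0.18, lower in Ngfr KO. The 4 low genes were lower as well, for example Rarb at -4.71 ± 0.43 and -5.90 ± 0.32 and Rarg at -4.56 ± 0.61 and -6.59 ± 0.11. On this scale, where 1 is added, the level of such low genes hardly moves and the difference mostly carries the marker mean. In all, 1 of the 7 genes was higher in Ngfr KO relative to the FDC markers, 5 were lower and 1 overlapped. Against the endothelial markers all 7 were higher, Rarb by 2.02 and Rarg by 1.17. The FDC marker mean itself changed by 1.64 and the endothelial one by -1.56. A gene that did not change would thus come out lower against the first and higher against the second. The low genes, Rarg among them, mostly carry that shift. The share of all genes that do so was not counted, and nothing is read from these counts.

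Of the 4 called genes of the wider pathway that rose, only Rarres1 was higher in Ngfr KO relative to the FDC markers, at -3.54 ± 0.10 (SD, n = 4, WT) and -3.23 ± 0.29 (SD, n = 3, Ngfr KO). Its groups nearly touched, with WT replicate 4 at -3.42 and Ngfr KO replicate 2 at -3.41. Rdh11, Rdh14 and Dhrs7 were lower without overlap, with differences of -0.93, -1.10 and -1.14. Each had risen by less than the FDC marker mean, which changed by 1.64, and a gene with no change would be lower too. Of the 6 called genes that fell, 4 overlapped and 2 were higher in Ngfr KO relative to the endothelial markers. The higher ones were Ncoa2 and Nrip1, with differences of 1.06 and 0.91, each having fallen by less than the endothelial mean, which changed by -1.56. Against the same markers, Tgm2 was at 0.92 ± 0.28 (WT) and 1.03 ± 0.57 (Ngfr KO), and Meis2 had -0.14 ± 0.30 and 0.14 ± 0.28, with overlapping groups in both. The edgeR log2 change of Rarg, -1.72, stood beside an endothelial median of -1.65 by the same fit, and that of Stra6, 3.36, beside an FDC median of 1.43. The part of cell composition in these differences was not tested.

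**Figure D4:**
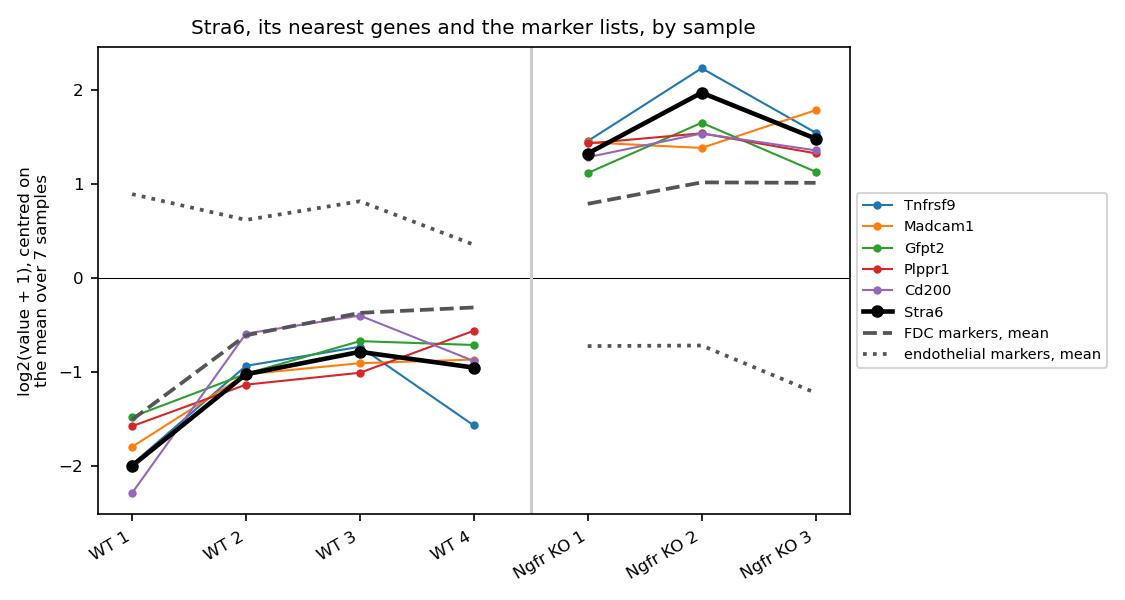
Log2(value + 1), centred on the mean over the 7 samples, for Stra6 (thick black), its 5 nearest genes (thin lines) and the mean of the FDC (dashed) and endothelial (dotted) markers; lines join samples of a genotype only to guide the eye, since replicates have no order. Stra6 lies below the FDC line in WT and above it in Ngfr KO, and the endothelial line runs the other way.

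Other marker lists were counted but not set against the retinoid genes sample by sample, and their part in the differences was not tested. Of 10 fibroblastic reticular markers 8 were tested, with 3 called higher and 1 lower; of 9 pericyte markers 6, with 3 higher; of 8 B-cell markers 5, with 1 higher; and of 7 T-cell markers 4, with none called. Of 10 macrophage and dendritic cell markers 4 were tested and 2 called higher; Lyz2 reached 28.1 in Ngfr KO replicate 3, and Itgax, a dendritic cell marker, was at most 0.0749. Of 6 Schwann and nerve markers 1 was tested and called higher. Adipocyte markers were near 0, with a summed value of at most 0.144 over the 2 genes in the table.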

How the data were processed

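The deposited data are a single table of normalised signal, gene by sample, whose name calls the values TMM (trimmed mean of M values). Libraries were prepared from SMART-Seq v4 cDNA with Nextera XT, per the labels' protocols. The submitters' processing notes name bcl2fastq 2.20.0.422 and the mm10 build; aligner, counting program and annotation are not given in the sources used here. In every sample 100.0% of the deposited signal values were whole multiples of 1 step (tolerance 0.01 reads), so reads were recovered; they summed to 17244925 to 18873542 per WT sample and 20741770 to 21538400 per Ngfr KO sample. Reads carry no stated molecular identifiers, so copies made in amplification could not be told apart. Read numbers are therefore not numbers of molecules. Positions and exon lengths are from GENCODE M21 (GRCm38, the same build as mm10), matched for 21137 of 21176 identifiers; promoter sequences are from RefSeq (GRCm38.p6).

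The comparison used limma 3.58.1 in R 4.3.3 (lmFit, eBayes with trend) on log2(value + 1), all 7 samples, no covariates, a filter for 3 or more samples reaching a value of 1, and Benjamini-Hochberg adjustment over all 8326 tested genes. P-values measure the spread between these pools. edgeR 4.0.16 (quasi-likelihood), which called 2551 of 16751 genes, and DESeq2 1.42.0 were run on the recovered reads as alternatives. Other alternatives were the pseudocount, the filter, median ratio scaling, the replicate block, leaving out each sample and, chosen after seeing the data, removal of the length trend. On simulated data for this comparison with 200 genes changed 4-fold, limma recovered 94.5% over 8193 genes and edgeR 98% over 16858. Of their calls, 6.9% and 2.49% were genes that had not been changed. The simulation gave every gene the same relative spread beyond counting error and changed only those 200 genes, so its rates need not hold for these data. Members and gene lists were chosen with earlier results of these data known. Named genes are the members, the called pathway genes (up to 5 per group), the most abundant uncalled gene of a group, the 5 genes nearest to Stra6 and defining markers; Dhrs3, Top2b, Rprd1b, Rbp7, Hoxa5 and Rxra were added after their values were seen. Some listed genes are counted but not reported here.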

Additional observations from a re-analysis of the deposited data

Results flagged for a closer look

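In 1 of 19 results examined, 1 WT sample stood far from the others, where chance gives 0.95. Fabp5, at 13.6, was low in WT replicate 1, while WT replicates 2 to 4 had 36.8 to 41.2. The gap spans 0.841 of the range of WT values, more than Dixon's critical value for 4 samples.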

How the results depend on the processing

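Against a count of 2844 called genes, 535 of 1297 were called with a filter of 10 (fewer genes tested), and refits with 1 replicate left out called 1614 to 3006; the lowest counts came without Ngfr KO replicate 2 (1614), Ngfr KO replicate 1 (1803) and WT replicate 1 (1870), with fewer samples. Against 10 called pathway genes, 2 of 5 were called with that filter, and refits with 1 replicate left out called 6 to 11, with 6 without Ngfr KO replicate 2. The log2 change of Stra6 was 3.38 with a pseudocount of 0.1, under either filter, 1.74 with a pseudocount of 5, 3.36 with edgeR, 3.36 with DESeq2 and 2.51 to 2.92 when 1 replicate was left out; the pseudocount by its construction shrinks low values. Dgat1, not called, went from 0.13 to -0.0918 once the length trend was removed. The 10 called pathway genes kept their direction in all 162 alternatives run for them and their call in 136; Rdh11, Rarres1, Tgm2 and Meis2 lost no call, and Ncor1 lost it without a filter. No clear pairing by replicate number was seen, though so few samples cannot settle the point. Deviations of same-numbered samples correlated at 0.298, -0.0593 and -0.0108 across genes, and 2 of 6 samples correlated best with their own number. With the replicate block 2717 genes and 13 pathway genes were called, Stra6 changed by 2.86, Dhrs7 was not called and Fabp5 was (0.89, limma adjusted p = 0.0329, over a range of 0.0329 to 0.288). Without WT replicate 1 the change of Fabp5 was 0.43 in place of 0.79. Low read numbers limit Aldh1a1, Cyp26b1, Rarb and Rarg.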

Other observations

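Some retinoid genes were too low for the filter on values but had enough reads for edgeR, which tested 42 of the 50 other pathway genes and called 3 higher and 7 lower, beside 8.67% and 6.55% of all genes it tested. Rbp7, a retinol-binding protein known from capillary endothelium and fat, had 10 to 138 reads in the 4 WT libraries and none in the 3 Ngfr KO libraries. Against a floor of 3 reads per library, Ngfr KO was at least 26.9-fold below the WT mean (edgeR adjusted p = 0.0106). Without WT replicate 3 it was at least 17.7-fold below. These bounds are for the mean: WT samples spanned 15.7-fold, and WT replicate 4, the lowest, had only 10 reads. Hoxa5, a homeobox gene induced by retinoic acid, fell from 0.810 ± 0.192 (SD, n = 4, WT) to 0.193 ± 0.041 (SD, n = 3, Ngfr KO), by 2.0 on the log2 scale of edgeR (adjusted p = 0.00962). Rxra, the partner of the retinoic acid receptors, had 0.929 ± 0.204 and 0.440 ± 0.046 with groups that did not overlap, and was not called (edgeR log2 change -1.01, adjusted p = 0.0515). Endothelial markers were lower in the same samples, with an edgeR median log2 change of -1.65; their part in these differences was not tested.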
